A study of Mus musculus with 2 samples.

Results

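The respiratory chain subunit genes are the 83 gene probe sets, of 22206 on the array, whose annotated symbol fits the naming pattern of nuclear-encoded subunits of complexes I to V. They are 35 genes of complex I, 4 of complex II, 9 of complex III, 18 of complex IV and 17 of complex V, with 1 probe set per gene. They were measured in F2 cells, a mouse vascular endothelial line derived from a UV-induced tumour of mixed BALB/c and C57BL/6 background. The cells carried hBACCS2, a light sensor fused to part of STIM1 that opens the Ca2+ channel ORAI1 under blue light. One culture was lit at 470 nm and about 0.4 mW/mm2 for 2 min at a time, with pauses of 18 min, over 4 h, and the other received no light. RNA of each was hybridized to 1 Clariom S array, so no difference below has a replicate, no test was possible and no p-value is given. Only part of the cells took up the plasmid, so each signal is an average over cells with and without hBACCS2. By the labels of the samples, both cultures held the hBACCS2 plasmid, while the design text has a control without it, and the labels are followed here.

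The respiratory chain sits in the inner mitochondrial membrane. Complex I (NADH dehydrogenase) and complex II (succinate dehydrogenase) pass electrons to ubiquinone, complex III passes them to cytochrome c, and complex IV (cytochrome c oxidase) passes them to oxygen. Complexes I, III and IV pump protons, and complex V (ATP synthase) uses their return flow to make ATP. Ca2+ taken up by mitochondria is known to activate several dehydrogenases that feed this chain, and endothelial cells are known for drawing much of their ATP from glycolysis. Subunits encoded in mitochondrial DNA were not analysed here, because 26 symbols of the mitochondrial genome were looked up and 0 were found among named probe sets.

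The deposited values are log2 signals, given below as linear signals. A ratio is the signal with blue light over that without, and a call of higher needed a ratio above 2, a call of lower one under 0.5, and either call both signals above 24. The cutoff of 24 lies near the median of the 5222 negative control probes, which was 26.5 with blue light and 26.2 without. Over all gene probe sets, the median signal was 32.4 with blue light and 31.4 without, and 11695 passed the signal cutoff. Of the endothelial markers, 9 of 9 found by name passed it, with Cdh5 at 231925 with blue light and 284467 without and Pecam1 at 22321 with blue light and 26121 without. Vwf was the dimmest of the 9, at 41.3 with blue light and 27.8 without, the latter near the negative control median. Of 18 markers of fibroblasts, smooth muscle, leukocytes and epithelium, 3 passed it (Col1a1, Acta2 and Krt8), with signals from 25.4 to 92.1 with blue light and from 25.5 to 81.4 without.

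No respiratory chain gene was called higher or lower with blue light. Of the 83 genes, 76 passed the signal cutoff, and 0 were higher and 0 lower by the ratio rule, against 0.958% of all probe sets called higher and 1.37% called lower. At a milder ratio of 1.5, 5 of the 76 genes were higher and 0 lower, where 7.55% of all probe sets were higher and 8.47% lower. These 5 were Ndufa9, Ndufb4 and Ndufa5 of complex I, Sdhc of complex II and Uqcrh of complex III. The ratios of the 76 genes were centred a little above those of all probe sets. The median log2 ratio was 0.15, a ratio of 1.11, with quartiles of -0.07 and 0.34. Over all 11695 probe sets the median was -0.01, with quartiles of -0.28 and 0.25. Of the 76 genes, 51 had a log2 ratio above 0, or 67.1%, where 48.5% of all probe sets did. The lowest log2 ratio was -0.51 (Atp5e) and the highest 0.78 (Ndufa9). In bulk RNA of this kind, a change in few cells and a smaller change in all cells cannot be told apart.

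**Figure D1:**
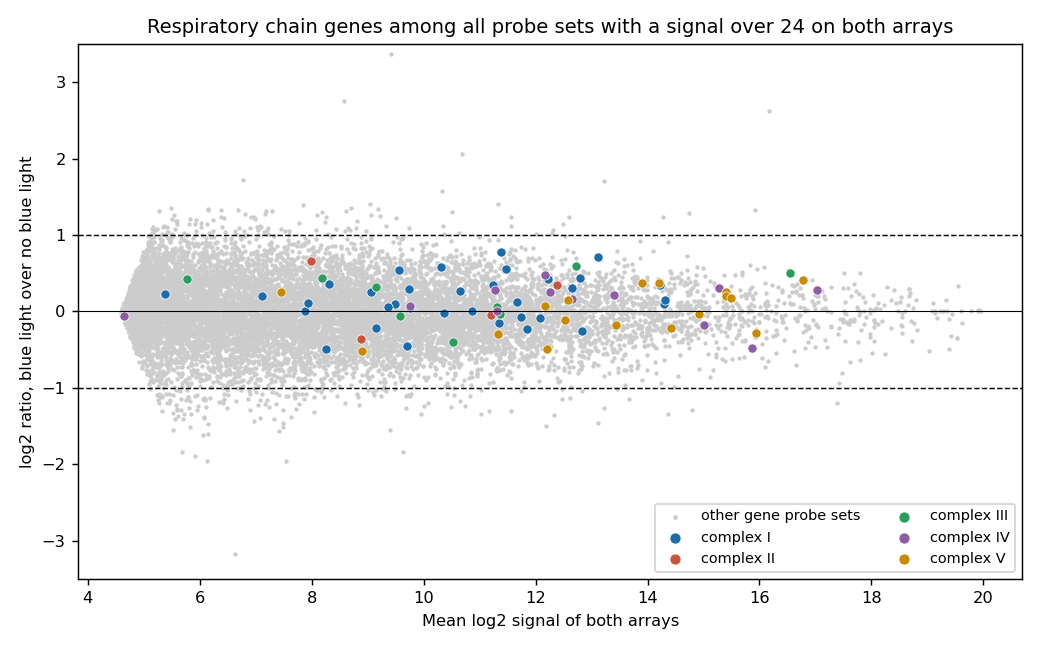
log2 ratio of blue light over no blue light (vertical axis) against the mean log2 signal of both arrays (horizontal axis) for probe sets over the signal cutoff of 24. Coloured points are the 76 respiratory chain genes by complex, grey points are other probe sets, and dashed lines mark ratios of 2 and 0.5, which no coloured point crosses.

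Most of these genes gave bright signals, so they were also set against probe sets of like signal. In the range of mean signal from 272 to 41389, which holds 60 of the 76 genes, the median log2 ratio was 0.09 for the 60 and -0.03 for all 5557 probe sets of that range. In that range 38 of the 60 genes, or 63.3%, had a ratio above 1, against 46.0% of all probe sets there. Each ratio was also ranked among its 500 neighbours in mean signal. By this rank 4 of the 76 genes were at or above percentile 95, which 5.01% of all probe sets reached, and 0 were at or below percentile 5, which 5.16% reached. The 4 were Ndufb4, Ndufa9, Uqcrb and Uqcrh, at percentiles 99.0, 98.6, 97.0 and 96.8. The share in the upper tail was thus close to that of all probe sets. Above percentile 50 lay 54 of the 76 genes and 5841 of all 11695 probe sets.

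**Figure D2:**
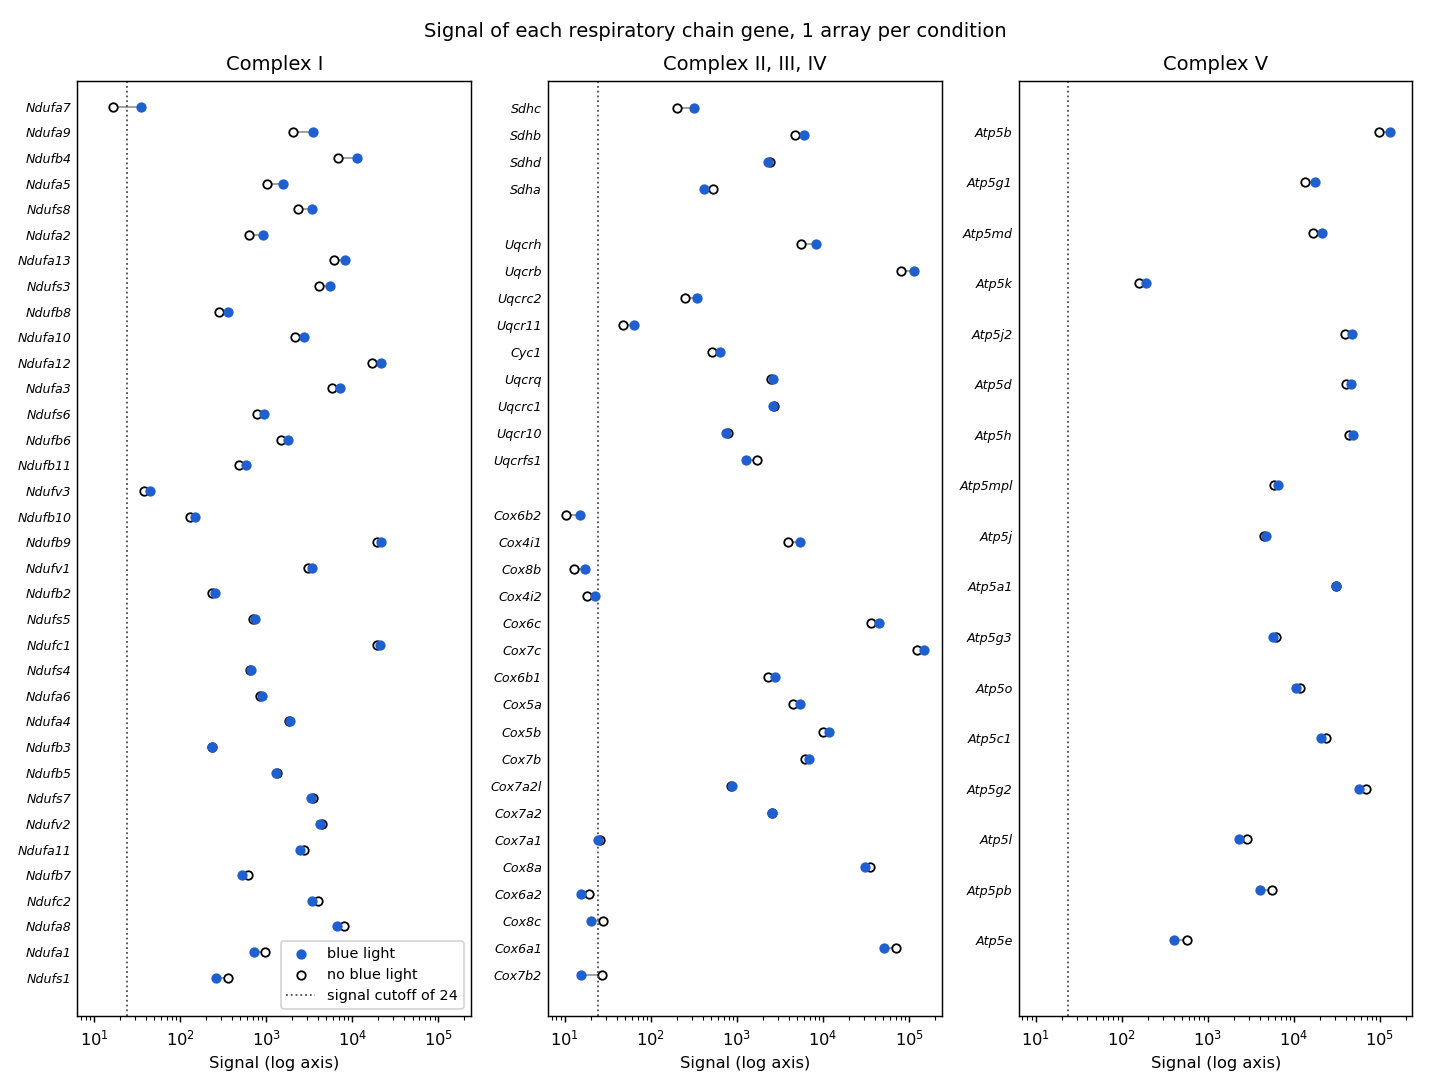
Signal (log axis) of each of the 83 genes with blue light (filled) and without (open), ordered within each complex by log2 ratio from the highest at the top. The dotted line is the signal cutoff of 24, and the paired points lie close together for nearly every gene over it.

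Promoters of respiratory chain genes are known for binding sites of NRF-1, of the ETS factor GABP and of YY1, and 6 promoters are shown to set such matches beside high and low ratios. RefSeq windows of 250 bases before to 50 bases after the start (GRCm38.p6) were found for 68 of the 83 genes, 73 windows in all. The 120 bases before the start are printed 5′ to 3′, with matches in capitals. Uqcrh, Ndufs3, Atp5e and Cox6a1 hold the ETS letters CCGGAAG or their reverse complement CTTCCGG. Atp5j, in 1 of its windows, holds an ETS match and the YY1 letters AAGATGGCG (CGCCATCTT on the other strand). Atp5g2 holds the NRF-1 letters, which are the capitals of its sequence and read the same on both strands.
Uqcrh (chr4:116075071-116075190, minus strand): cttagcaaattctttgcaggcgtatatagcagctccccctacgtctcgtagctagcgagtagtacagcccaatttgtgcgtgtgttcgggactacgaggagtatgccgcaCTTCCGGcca
Ndufs3 (chr2:90904722-90904841, minus strand): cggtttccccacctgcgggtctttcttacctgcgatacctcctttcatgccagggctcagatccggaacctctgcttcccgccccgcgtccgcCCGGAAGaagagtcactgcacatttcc
Atp5j (chr16:84834977-84835096, minus strand): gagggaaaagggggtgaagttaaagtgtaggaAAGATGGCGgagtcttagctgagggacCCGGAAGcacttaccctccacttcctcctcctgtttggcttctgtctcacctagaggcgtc
Atp5e (chr2:174464102-174464221, minus strand): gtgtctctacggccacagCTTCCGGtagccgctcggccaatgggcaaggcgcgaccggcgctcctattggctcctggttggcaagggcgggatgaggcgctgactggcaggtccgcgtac
Cox6a1 (chr5:115348959-115349078, minus strand): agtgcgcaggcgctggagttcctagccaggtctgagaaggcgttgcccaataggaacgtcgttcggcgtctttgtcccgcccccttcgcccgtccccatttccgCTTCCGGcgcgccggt
Atp5g2 (chr15:102671048-102671167, minus strand): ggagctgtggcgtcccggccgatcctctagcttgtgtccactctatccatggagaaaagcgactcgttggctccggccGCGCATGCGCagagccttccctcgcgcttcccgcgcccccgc

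The 5 genes printed with an ETS match were picked with their ratios known, to show high and low ones. Their log2 ratios run from -0.51 for Atp5e and -0.47 for Cox6a1 to 0.42 for Ndufs3 and 0.59 for Uqcrh. This spread follows from the choice. In the full windows, searched on both strands, the ETS letters were in 17 of 73 member windows, or 23.3%, and in 8.86% of all 32851 windows. A further NRF-1 match of Cox6a1 and a further ETS match of Ndufs3 lie outside the printed bases. The NRF-1 letters were in 5 member windows, or 6.85%, and in 0.971% of all, and the YY1 letters in 7, or 9.59%, and in 1.40% of all. No matches of different motifs overlapped in a member window. Of the 17 genes with an ETS match 11 had a log2 ratio above 0, with a median of 0.26 and a range from -0.51 to 0.59. The 5 genes with an NRF-1 match ranged from -0.47 to 0.26, 1 of them above 0, and the 7 with a YY1 match from -0.08 to 0.78, 6 of them above 0. For the 38 genes with none of these letters and a signal over the cutoff, the range was -0.49 to 0.71 and 25 were above 0. Median log2 ratios were -0.16 with an NRF-1 match, 0.09 with a YY1 match and 0.10 with none of the letters. The ratio ranges of genes with each motif and with none thus overlapped.

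Complex I has the most members, and 34 of its 35 passed the signal cutoff. Their median log2 ratio was 0.14, with 25 above 0 and 9 below. The module with the highest median was the ubiquinone-reducing Q module. Ndufa9, an accessory subunit near the junction of the matrix and membrane arms, had a signal of 3503 with blue light and 2035 without, a log2 ratio of 0.78. Ndufa5, another accessory subunit there, had 1547 with blue light and 1031 without (0.59). Ndufs8, which carries iron-sulphur clusters on the path to ubiquinone, had 3439 with blue light and 2341 without (0.55). Ndufs3, a core subunit whose promoter is shown above, had 5536 with blue light and 4137 without (0.42). All 4 signals were higher with blue light, though none by a ratio of 2. Ndufs7, which carries the last iron-sulphur cluster before ubiquinone, had nearly equal signals, at 3346 with blue light and 3536 without (-0.08). The 5 genes of this module had a median of 0.55, which was 0.51 with median scaling and 0.60 with quantile or loess scaling.

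The NADH-oxidizing N module held both high and low members. Ndufs1, its large iron-sulphur subunit, had the lowest log2 ratio of complex I, -0.49, with a signal of 258 with blue light and 362 without. Ndufv1, which binds the flavin that takes electrons from NADH, had 3381 with blue light and 3095 without (0.13). Its partner Ndufv2, an iron-sulphur subunit, had 4175 with blue light and 4435 without (-0.09). The electron-carrying subunits of this module thus lay on both sides of 0, all within the ratio of 2. Among its accessory subunits, Ndufa2 had 908 with blue light and 626 without (0.54) and Ndufa12 had 21490.3 with blue light and 16989 without (0.34). Ndufs6, Ndufs4, Ndufa6 and Ndufv3 had log2 ratios of 0.29, 0.05, 0.05 and 0.23, the last at the dim signals of 44.8 with blue light and 38.3 without. Ndufa7 was the only member of any complex with a ratio above 2, 2.09, but its signal was 35.03 with blue light and 16.7 without. The signal without blue light is under the signal cutoff and below the negative control median, so no call was made.

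In the membrane arm, where the proton pumps lie, 1 gene stood above the rest. Ndufb4, an accessory subunit of the distal part, had a signal of 11268 with blue light and 6904 without, a log2 ratio of 0.71. The other 9 distal genes had ratios from -0.22 (Ndufb7) to 0.36 (Ndufb8), and the median of all 10 was 0.17. The 9 genes of the proximal part had a median of 0.09. Ndufa13, also known as GRIM-19, was highest among them, at 8289.7 with blue light and 6136 without (0.43), and Ndufa10 had 2717 with blue light and 2129.6 without (0.35). Ndufa1, which is needed for complex I assembly, was lowest, at 713 with blue light and 979.7 without (-0.46). Next to it were Ndufa8, Ndufc2 and Ndufa11, at log2 ratios of -0.26, -0.23 and -0.16. The proximal part thus held 4 genes below 0 and 5 above, with Ndufa3, Ndufs5 and Ndufc1 at 0.30, 0.09 and 0.09. Ndufa4, named for complex I but known as a subunit of complex IV, had 1862 with blue light and 1849 without (0.01), and -0.03 with median scaling.

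**Figure D3:**
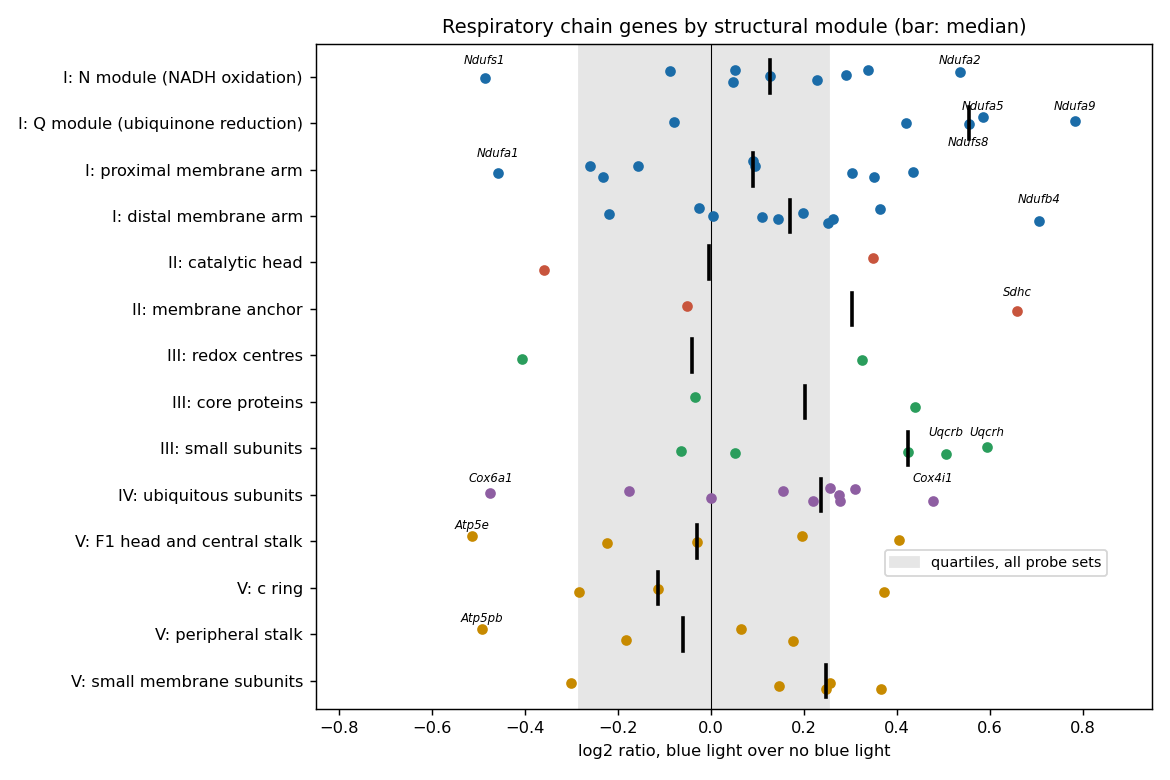
log2 ratio of blue light over no blue light (horizontal axis) for genes over the signal cutoff, by structural module; black bars are medians and the grey band lies between the quartiles of all probe sets, -0.28 and 0.25. The Q module of complex I and the small subunits of complex III have the highest medians, 0.55 and 0.43, and the c ring of complex V the lowest, -0.11. The 0.43 is the value of Uqcr11, a dim gene, and with 24 added to both signals the median of these small subunits was 0.295.

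All 4 genes of complex II passed the signal cutoff, and they split evenly about 0. Sdhc, which anchors the enzyme in the membrane, had a signal of 319.8 with blue light and 202 without, a log2 ratio of 0.66. Sdhb, the iron-sulphur subunit, had 6057 with blue light and 4755 without (0.35). Sdhd, the other anchor subunit, had 2304 with blue light and 2387 without (-0.05). Sdha, the flavoprotein that oxidizes succinate, was lowest, at 415 with blue light and 532 without (-0.36). The median of these 4 was 0.15.

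Complex III had the highest median of the complexes, 0.33, with 6 of 9 genes above 0. Uqcrh, the hinge protein that aids the docking of cytochrome c and whose promoter is shown above, had 8314 with blue light and 5508 without, a log2 ratio of 0.59. Uqcrb, a small subunit near the ubiquinone site, had 113537 with blue light and 79977 without (0.51). Uqcrc2, one of the core proteins, had 338 with blue light and 249.7 without (0.44), while Uqcrc1, the other core protein, was nearly equal at 2594 with blue light and 2654 without (-0.03). The electron carriers differed in sign. Cyc1, which encodes cytochrome c1, had 637 with blue light and 508 without (0.33), and Uqcrfs1, the Rieske iron-sulphur protein, had 1285 with blue light and 1702 without (-0.41). Of the remaining small subunits, Uqcr11 was dim, at 63.1 with blue light and 47.0 without (0.43), and Uqcrq and Uqcr10 had log2 ratios of 0.05 and -0.06. With only genes whose signal exceeded 100 on both arrays, which leaves out Uqcr11, the median of the complex was 0.19 and that of complex IV 0.22.

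In complex IV, 12 of 18 genes passed the signal cutoff, with a median of 0.19, 9 above 0 and 3 below. These 12 include Cox7a1, a tissue-restricted isoform near the cutoff, and Cox7a2l, which is not a subunit. The 10 ubiquitous subunits alone had a median of 0.24, with 8 above 0 and 2 below. Cox4i1, a subunit that joins early in assembly, was highest, at 5449 with blue light and 3915 without, a log2 ratio of 0.48. Cox6a1 was lowest, at 50427 with blue light and 70026 without (-0.47), at percentile 7.2 among its neighbours in signal. Cox6c, Cox7c, Cox6b1, Cox5a, Cox5b and Cox7b lay between 0.16 and 0.31. Cox8a was at -0.18, and Cox7a2 had almost equal signals, 2533 with blue light and 2530.5 without (0.0013). The ubiquitous subunits other than Cox6a1 and Cox8a thus had ratios above 1, that of Cox7a2 barely so. Cox7a2l, which is known for joining complexes III and IV in supercomplexes and is a member by its symbol only, had 883 with blue light and 844 without (0.06).

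Several complex IV subunits have a second isoform that is restricted to certain tissues, such as Cox6a2, Cox7a1 and Cox8b in heart and skeletal muscle, Cox4i2 in lung, and Cox6b2, Cox7b2 and Cox8c in testis. In F2 cells the 7 genes of this kind had signals of at most 24.4 with blue light and 27.9 without. Cox7a1 alone passed the cutoff on both arrays, by little, at 24.4 with blue light and 25.5 without. Cox4i2, Cox6a2, Cox6b2 and Cox8b were under 24 on both arrays, with signals from 14.9 to 22.3 with blue light and from 10.4 to 19.2 without. Cox7b2 was at 15.4 with blue light and 26.8 without and Cox8c at 20.2 with blue light and 27.9 without. All 7 signals with blue light lay below the negative control median of 26.5, so ratios of these genes are not interpreted. Each has a ubiquitous partner (Cox4i1, Cox6a1, Cox6b1, Cox7a2, Cox7b and Cox8a) whose signal was at least 2533 with blue light and 2261 without.

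**Figure D4:**
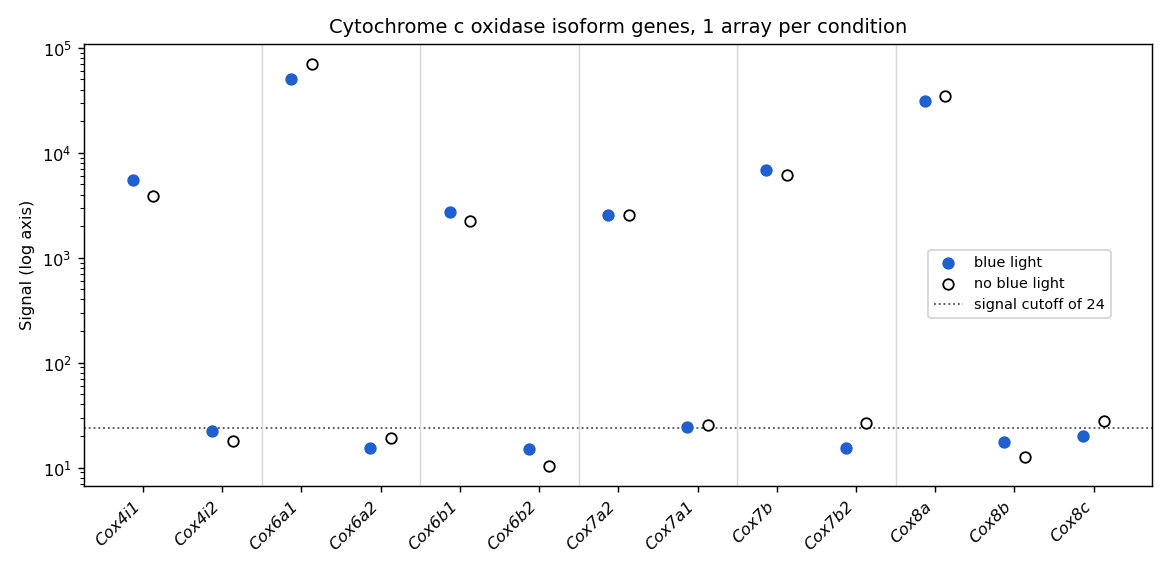
Signal (log axis) of complex IV isoform genes with blue light (filled) and without (open), 1 array per condition, each ubiquitous gene followed by its tissue-restricted partners. The 7 tissue-restricted genes lie near or below the dotted cutoff of 24, and the 6 ubiquitous ones are far above it on both arrays.

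All 17 genes of complex V passed the cutoff, and their median was the smallest of the complexes, 0.06, with 9 above 0 and 8 below. It was 0.02 with median scaling and 0.13 with quantile scaling. In the F1 head, Atp5b, the catalytic beta subunit, had 129474 with blue light and 97824 without, a log2 ratio of 0.40. Atp5a1, the alpha subunit that alternates with it in the head, had 30557 with blue light and 31177 without (-0.03). In the central stalk, Atp5c1, the rotating gamma subunit, had 20393 with blue light and 23804 without (-0.22). The partners of 1 rotary head thus had ratios on both sides of 1. Atp5d (delta) had 46258 with blue light and 40359 without (0.20), and Atp5e (epsilon), the lowest of all 76 genes and one with a promoter shown above, had 402 with blue light and 574 without (-0.51).

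The c ring, whose turning is driven by protons, is built from a single mature protein encoded by Atp5g1, Atp5g2 and Atp5g3. These genes did not share a direction. Atp5g1 had 17417 with blue light and 13449 without (0.37), Atp5g2 had 56639 with blue light and 68971 without (-0.28) and Atp5g3 had 5689 with blue light and 6151 without (-0.11). As paralogs of similar sequence they may share hybridization. In the peripheral stalk, Atp5pb (subunit b) had 3997 with blue light and 5618 without (-0.49), and Atp5h, Atp5j and Atp5o had log2 ratios of 0.18, 0.06 and -0.18. Of the small membrane subunits, Atp5md, which helps ATP synthase form dimers, had 21437 with blue light and 16622 without (0.37), and Atp5k (subunit e), Atp5j2 (subunit f) and Atp5mpl had log2 ratios of 0.26, 0.25 and 0.15. Atp5l (subunit g), at 2318 with blue light and 2854 without (-0.30), was the only one of these 5 below 0.

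The log2 ratios of Sdhd, Uqcrc1 and Atp5a1 lay so near 0 that quantile scaling gave 0.0022, 0.0020 and 0.00 for them. By role, the 20 genes taken as the catalytic core (core subunits of the matrix arm of complex I, all of complex II, Cyc1 and Uqcrfs1, the F1 subunits and the c ring) had a median log2 ratio of -0.04, with 9 above 0 and 11 below. The 54 accessory genes over the cutoff had a median of 0.19, with 41 above 0 and 13 below. The quartiles were -0.24 and 0.36 for the core and 0.0020 and 0.33 for the accessory genes, so both ranges of ratios overlapped. The median of the core was 0.0011 with quantile scaling and 0.0046 with loess scaling, where that of all probe sets was 0.0032 and -0.000060.

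The other genes that serve the chain were read from lists of assembly factors, electron carriers, citric acid cycle enzymes, import proteins, mitochondrial ribosomal proteins and regulators. Over the signal cutoff, 1 of 43 assembly factors was called higher and 0 lower, where 0.958% and 1.37% of all probe sets were, and their median log2 ratio was 0.05. The 1 was Cox17, the copper chaperone that serves complex IV, with a signal of 7136 with blue light and 3489 without, a ratio of 2.04. It lies just past the ratio of 2, and with median scaling its log2 ratio was 0.99 and the call was lost. Atpaf2, an assembly factor of the F1 head, followed with 213 with blue light and 121 without, a log2 ratio of 0.82. Cycs, which encodes the cytochrome c that links complexes III and IV, had nearly equal signals of 43082 with blue light and 41284 without (0.06).

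None of the other lists held a called gene. The 5 electron carriers and further subunits over the cutoff had a median of 0.06, with Atpif1, the inhibitor of ATP synthase, and Etfa, a part of electron transfer flavoprotein, at 0.26 and 0.16. The 16 citric acid cycle and pyruvate dehydrogenase genes had a median of 0.12, with Dlat and Pdhx of the pyruvate dehydrogenase complex at 0.78 and 0.43. Pdha1 and Pdhb of the same complex were at -0.05 and -0.01, and Mdh2, a malate dehydrogenase, was at -0.43. The 28 import genes had a median of 0.03. The 10 of the outer membrane had a median of 0.32, with 8 above 0. The other 18 had a median of -0.05, with 7 above 0, where 48.5% of all probe sets were. Among these 18, the small intermembrane space chaperones Timm13 and Timm8b were at 0.83 and 0.82. Of the same chaperone family, Timm10, Timm10b and Timm8a1 were at 0.42, -0.05 and -0.08 and Timm9 was not over the cutoff, and Pmpca, a subunit of the processing peptidase, was at -0.62. The 76 mitochondrial ribosomal protein genes also had a median of 0.03, with Mrps36, also known as a part of alpha-ketoglutarate dehydrogenase, at -0.95 and Mrpl12 at -0.63. With median scaling the medians of the import and ribosomal genes were -0.01 and -0.01, and that of all probe sets was -0.05.

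Regulators of these genes had a median of -0.10 over 16 genes, with 6 above 0 and 9 below. Gabpa, which encodes the DNA-binding subunit of GABP, the factor whose ETS letters are marked in the promoters above, had 608 with blue light and 996 without, a log2 ratio of -0.71. Its partner Gabpb1 had 1397 with blue light and 2010.2 without (-0.52). Neither reached a ratio of 0.5, and both are among the lowest of the list. Nrf1, which encodes NRF-1, had 678 with blue light and 758 without (-0.16), and Yy1 had the same signal of 1685 on both arrays. Tfam, the mitochondrial DNA-packaging factor, had 239.6 with blue light and 210.0 without (0.19). The coactivator gene Ppargc1a was near the negative controls, at 26.7 with blue light and 28.8 without.

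**Figure D5:**
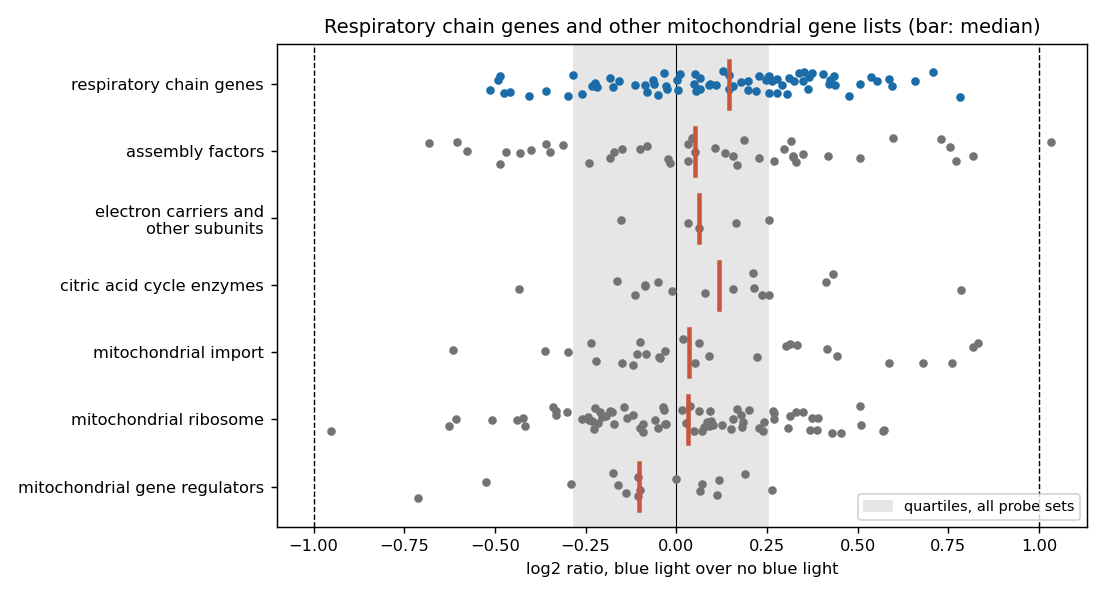
log2 ratio of blue light over no blue light (horizontal axis) for respiratory chain genes and 6 other mitochondrial gene lists, for genes over the signal cutoff; bars are list medians, the grey band lies between the quartiles of all probe sets, and dashed lines mark ratios of 2 and 0.5. The medians run from -0.10 for the regulators to 0.15 for the respiratory chain genes, and 1 assembly factor, Cox17, lies past a dashed line.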

How the data were processed

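Total RNA of F2 cells was hybridized to 1 Clariom S array for each condition. The authors ran version 3.2 of Filgen's Microarray Data Analysis Tool for normalization, and the deposited values are log2 signals. The sources used here do not name its normalization or background method. Sorted columns of gene probe sets differed by at most 0.233, so a change common to nearly all genes could not be seen. Of 28846 rows, 6640 control rows were left out. Symbols came from the platform annotation. Gene probe sets with no symbol or with more than 1 were left unnamed, 2634 in all, so none of them could be a member.

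Members were taken by symbol pattern and grouped by complex, structural module and role. The members and lists were chosen with earlier results of these data known. Ratios used the deposited values as they stand. The fold and signal cutoffs are those of the study's methods, with the signal cutoff applied to both arrays. Named members were the 3 highest and 3 lowest of each complex, those past 1.5-fold, the catalytic core and tissue-restricted isoforms, and in each other list those past 2-fold and up to 2 with the largest ratio. Other named genes, the motifs and the printed promoters were chosen after values were seen. The precision is limited by the number of arrays. Steps were tested on simulated data. Alternatives were median, quantile and loess scaling (span 0.3), 24 added to both signals, other cutoffs, means per gene and other memberships. Python 3.11.15, numpy 2.4.6, pandas 2.3.3 and statsmodels 0.14.6 were used.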

Additional observations from a re-analysis of the deposited data

How the results depend on the processing

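With no signal cutoff, 1 respiratory chain gene, Ndufa7, was called higher, and with a fold cutoff of 1.5 in place of 2 the number was 5. No gene was called lower under either setting. Under median, quantile and loess scaling, with 24 added to both signals, with a signal over 100, per gene symbol and with narrower membership, 0 genes were called in either direction. The median log2 ratio of all members was 0.10 with median scaling and 0.19 with loess scaling, the lowest and highest values, and the number above 0 was 48 with median scaling and 54 with quantile or loess scaling, where 44.2%, 50.2% and 50.0% of all probe sets were above 0 with median, quantile and loess scaling. The median of complex IV was 0.28 with quantile scaling. Under that scaling 75 genes passed the signal cutoff, and Cox7a1 was no longer among them. The ubiquitous subunits of complex IV had a median of 0.29 there, against 0.24 with the values as deposited. The number past a ratio of 1.5 was 3 with median scaling, 4 with 24 added and 6 with quantile or loess scaling. Ndufa9, Ndufb4 and Sdhc were past it in each of these. Ndufa5 and Uqcrh lost it with median scaling, Ndufa5 also with 24 added, and Ndufs8 gained it with quantile and loess scaling. Among other named mitochondrial genes, for which these settings were added after seeing the data, Cox17 lost its call with median scaling, at 0.99. The cause of these changes was not tested. No paired analysis was possible because each condition has 1 array. For the same reason no replicate could be left out, and the number of arrays limits every value.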
